A study of Homo sapiens with 6 samples.

Results

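The genes described here encode the myosin motors, their light chains and the kinases and phosphatase subunits that act on the regulatory light chain. They were chosen by symbol from a table of 20851 gene names: the myosin heavy chains (MYH), the light chains (MYL), the unconventional myosins (MYO), the light-chain kinases (MYLK), the targeting subunits of myosin phosphatase (PPP1R12A, PPP1R12B and PPP1R12C), its catalytic subunit PPP1CB, and the kinases ROCK1 and ROCK2. The rule found 45 genes, of which 8 were conventional heavy chains, 8 light chains, 19 unconventional myosins and 10 light-chain regulators. Of these, 35 had enough counts to be tested, and 10 did not.

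Counts came from A375, an established human melanoma cell line, in 2 groups of 3 replicate libraries each. A375 RIPK4.KO is a subline in which RIPK4, a receptor-interacting serine/threonine kinase, was inactivated with CRISPR/Cas9 and an sgRNA delivered by lentivirus. A375 neg went through the same procedure with a nontargeting sgRNA, and GEO's labels name its libraries NEG_KO_GFP with the treatment GFP control. The labels name no further agent for either group, and the line was kept in RPMI-1640 medium with serum. A375 neg is called the control and A375 RIPK4.KO the knockout below. The knockout cells were clone #1, a single clone, so that the loss of RIPK4 and a difference between clones cannot be told apart. GFP is named in the titles of the control libraries only, and a difference tied to it cannot be told apart either. Poly(A)-selected, strand-specific libraries held between 21882863 and 26694140 counts. RIPK4 itself was at 347 ± 32.7 normalized counts (SD, n = 3) in the controls and at 53.7 ± 7.98 in the knockout, a log2 fold change of -2.69 (edgeR's quasi-likelihood test, adjusted p = 1.01e-05).

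Conventional myosins, the class II motors, are hexamers of a pair of heavy chains, a pair of essential light chains and a pair of regulatory light chains, and they assemble into bipolar filaments that pull on actin. In non-muscle cells, filament assembly and motor activity rise when the regulatory light chain is phosphorylated by myosin light-chain kinase or ROCK, and fall when myosin phosphatase removes the phosphate. In melanoma cells this circuit drives cortical contraction and bleb-based movement, whereas unconventional myosins carry cargo, tether membranes or build actin-rich protrusions, and in pigment cells they also hold melanosomes. The messenger RNA counts given here do not measure protein or phosphorylation.

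The regulatory light chains of smooth muscle and non-muscle myosin II are encoded by MYL9, MYL12A and MYL12B. MYL5, a further gene of the regulatory type, is described on its own and was not counted in the pool of these 3. The start of each coding sequence is shown because MYL9 was the light chain whose level differed between the groups, and because the 3 products carry the same phosphorylated pair of residues. Lines run 5′ to 3′ from the start codon over 75 bases of exon 2 (GENCODE 29, GRCh38, + strand), and capitals mark the adjacent threonine and serine codons, which encode residues 18 and 19 of the MYL9 and MYL12B proteins counted without the first methionine.

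MYL9 (chr20:36544885-36544959): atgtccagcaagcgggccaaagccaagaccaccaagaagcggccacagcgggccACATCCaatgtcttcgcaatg
MYL12A (chr18:3253248-3253322): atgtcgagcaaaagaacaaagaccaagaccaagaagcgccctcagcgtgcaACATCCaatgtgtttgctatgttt
MYL12B (chr18:3272899-3272973): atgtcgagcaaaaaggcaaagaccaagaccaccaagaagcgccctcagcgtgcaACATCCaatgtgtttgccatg

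The capitals hold the same 6 bases in all 3 genes. Over the whole coding sequence MYL12A and MYL12B were 95.2% identical, whereas MYL9 was 78.9% identical to MYL12A and 80.8% identical to MYL12B. No 150-base window, the length of a read, was shared between the principal transcripts of the 3 genes or between those of MYL6 and MYL6B, so a full-length read from these transcripts belongs to 1 gene.

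Counts were compared per gene with edgeR's quasi-likelihood test over 14443 genes, with p-values adjusted over all of them, and a gene was called at an adjusted p under 0.05. At this threshold 16.6% of all genes tested were called, 8.4% higher and 8.24% lower in A375 RIPK4.KO. Of the 35 myosin and regulator genes tested, 4 were called (11.4%), which is close to that background. MYL9, MYO10 and MYO1D rose and MYO18A fell. At a change of at least 1.5-fold as well, 2 remained, MYL9 and MYO1D, against a background of 9.04%. The libraries of the groups did not overlap for 14 of the 35 genes, against 36.5% of all genes tested. The median log2 fold change of the 35 genes was 0.04, and its absolute size had a median of 0.20, compared with -0.00 and 0.18 over all genes tested.

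**Figure D1:**
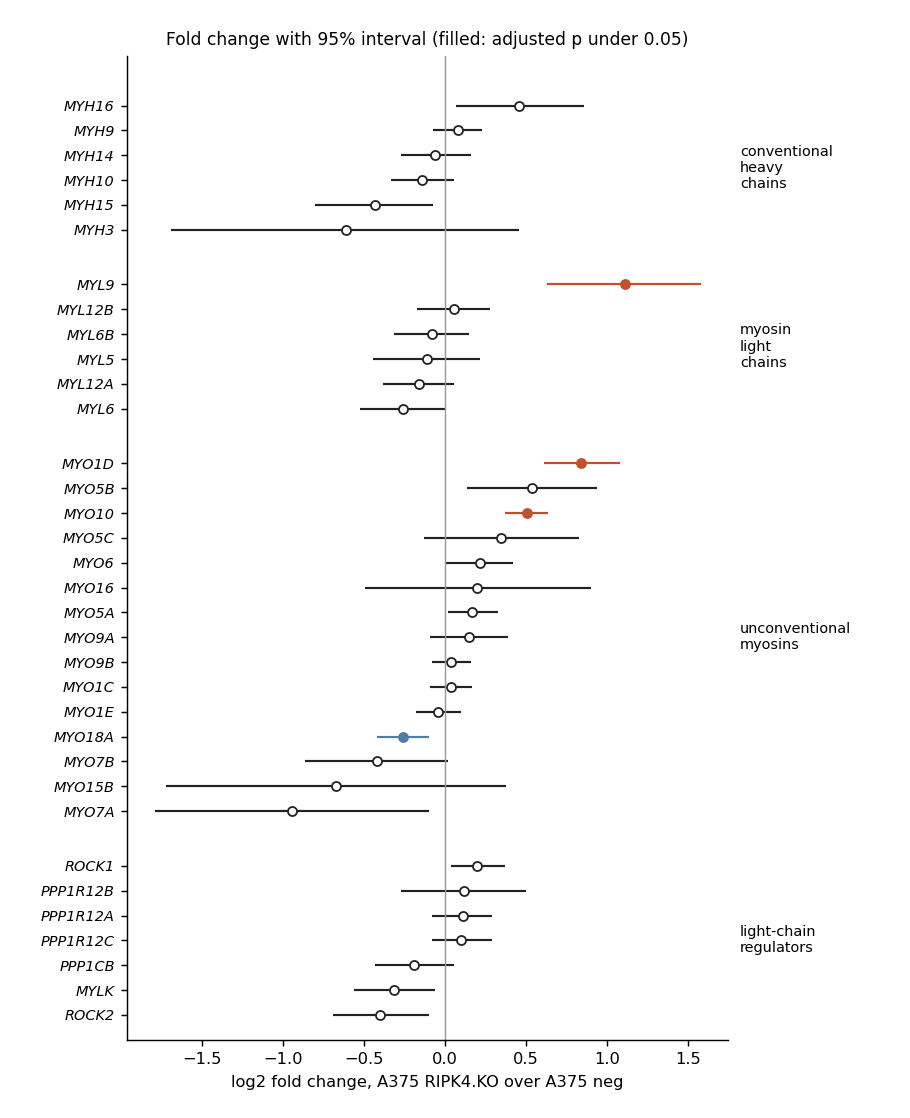
Log2 fold change of 34 of the 35 tested genes (horizontal axis, A375 RIPK4.KO over A375 neg) with its 95% interval, grouped by class; filled points had an adjusted p under 0.05 in edgeR's quasi-likelihood test. Filled points are MYL9, MYO1D and MYO10 to the right of 0 and MYO18A to the left, and open points are the other genes.

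By class, 0 of 6 conventional heavy chains, 1 of 6 light chains, 3 of 16 unconventional myosins (18.8%) and 0 of 7 light-chain regulators were called. Of all genes tested 16.6% were called, and no class was compared with this share by a test. The median log2 fold changes of these classes were -0.10, -0.09, 0.13 and 0.10, respectively.

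A375 RIPK4.KO replicate 2 stood apart from the other libraries, and its deviation went in part with transcript length. Among the 35 genes, the 5 whose principal transcript is under 2 kb had a median log2 ratio of 0.31 to the mean of the other 2 knockout libraries, and the 30 longer ones had a median of -0.08. The same ratio in A375 RIPK4.KO replicate 1 was -0.31 for the short and 0.02 for the long transcripts, while in A375 neg the short ones lay between -0.07 and 0.01. Over the 35 genes the ratio correlated with log2 length at -0.37 in knockout replicate 2 and 0.36 in knockout replicate 1 (Pearson). Replicate 2 enters the mean against which replicate 1 was set, so the values of these 2 libraries are not independent. In replicate 2 the ratio was -0.146 for MYL5, the shortest transcript at 666 bases, and 0.295 for MYL9 at 2821 bases. Across all genes with a length, log2 counts were also taken relative to each gene's mean over all libraries. Their slope on length was -0.0565 per doubling in knockout replicate 2 and between -0.00621 and 0.0231 in the other 5 libraries. The light-chain transcripts other than that of MYL9 are under 2 kb and the other tested transcripts are longer, so results below are also given without this library where their call changed. What set this library apart was not tested. Without replicate 2, 12 of the 35 genes were called, against a background of 19.8% in that fit. MYL9, MYO10, MYO1D and MYO18A were called there too, and MYH16, MYL12A, MYL6, MYL6B, MYO5A, MYO9A, ROCK1 and ROCK2 were added. With the trend on length removed from each of the 6 libraries instead, 8 were called against a background of 20.4%.

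Among the conventional heavy chains, MYH9, MYH10 and MYH14 encode the non-muscle myosin IIA, IIB and IIC heavy chains. None of the 3 passed the test. MYH9 was the most abundant per length, at 2470 ± 117 normalized counts per kb of principal transcript (SD, n = 3) in the controls and 2620 ± 122 in the knockout. MYH10 followed at 517 ± 38.5 and 470 ± 45.6, and MYH14 at 84.7 ± 7.24 and 81.5 ± 5.59. The order of the 3 was the same in both groups, with no overlap between neighbours.

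MYH9 (chr22:36281280-36387967) had 18138, 18219 and 19709 normalized counts in the 3 control libraries and 19762, 18846 and 20690 in the knockout. The groups overlapped, the log2 fold change was 0.08 ± 0.07 (SE), and the adjusted p was 0.457. Its 95% interval was -0.07 to 0.23. MYH10 (chr17:8474212-8630725) had 3865, 3724 and 4291 normalized counts in the controls and 3840, 3202 and 3769 in the knockout, with a log2 fold change of -0.14 ± 0.09 and an adjusted p of 0.334. Replicate 2 was the lowest library. The exon position that the deposited table gives for MYH10 lies outside this RefSeq gene, so its counted model may differ from it. MYH14 (chr19:50203622-50310540) had 533, 568 and 630 normalized counts against 545, 523 and 597, with a log2 fold change of -0.06 ± 0.09 and an adjusted p of 0.733. Its groups overlapped almost fully, and the sign of its difference turned to 0.01 when A375 neg replicate 3 was left out.

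The summed level of the 3 non-muscle heavy chains was 3076 ± 161 normalized counts per kb in the controls and 3168 ± 166 in the knockout, which did not differ beyond the spread between libraries (two-sided exact permutation test, p = 0.5, adjusted p = 0.7 over 3 subunit sums). The make-up of this pool was also compared within each library, where no scaling between libraries enters. MYH10 took 16.9%, 16.3% and 17.2% of the pool per kb in the controls and 15.7%, 14% and 14.8% in the knockout. All 3 knockout libraries lay below all 3 controls, with a difference of -1.97 points between means of 16.8 ± 0.444 and 14.8 ± 0.847 (SD, n = 3). The two-sided exact permutation test gave p = 0.1 (0.1 after adjustment over 3 shares), which is the smallest value that 3 libraries against 3 allow, so no share could pass the threshold. Thus MYH10 itself did not pass its test, and its share of the pool was lower without overlap.

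The remaining heavy chains were scarce. MYH15, a slow-type muscle heavy chain, had 156 to 204 normalized counts in the controls and 126 to 150 in the knockout. The groups did not overlap, but the adjusted p was 0.108 at a log2 fold change of -0.43. MYH16, a jaw-muscle heavy chain gene that is inactivated in humans, had 108 to 128 normalized counts against 137 to 187. Its log2 fold change was 0.46 with an adjusted p of 0.11, and 0.59 with an adjusted p of 0.0349 without replicate 2. MYH3, the embryonic skeletal heavy chain, had 29.5 to 69.2 normalized counts against 14.6 to 54.7 and overlapped. The skeletal and cardiac forms MYH13 and MYH7B had totals of 4 and 7 counts over all 6 libraries and were not tested.

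**Figure D2:**
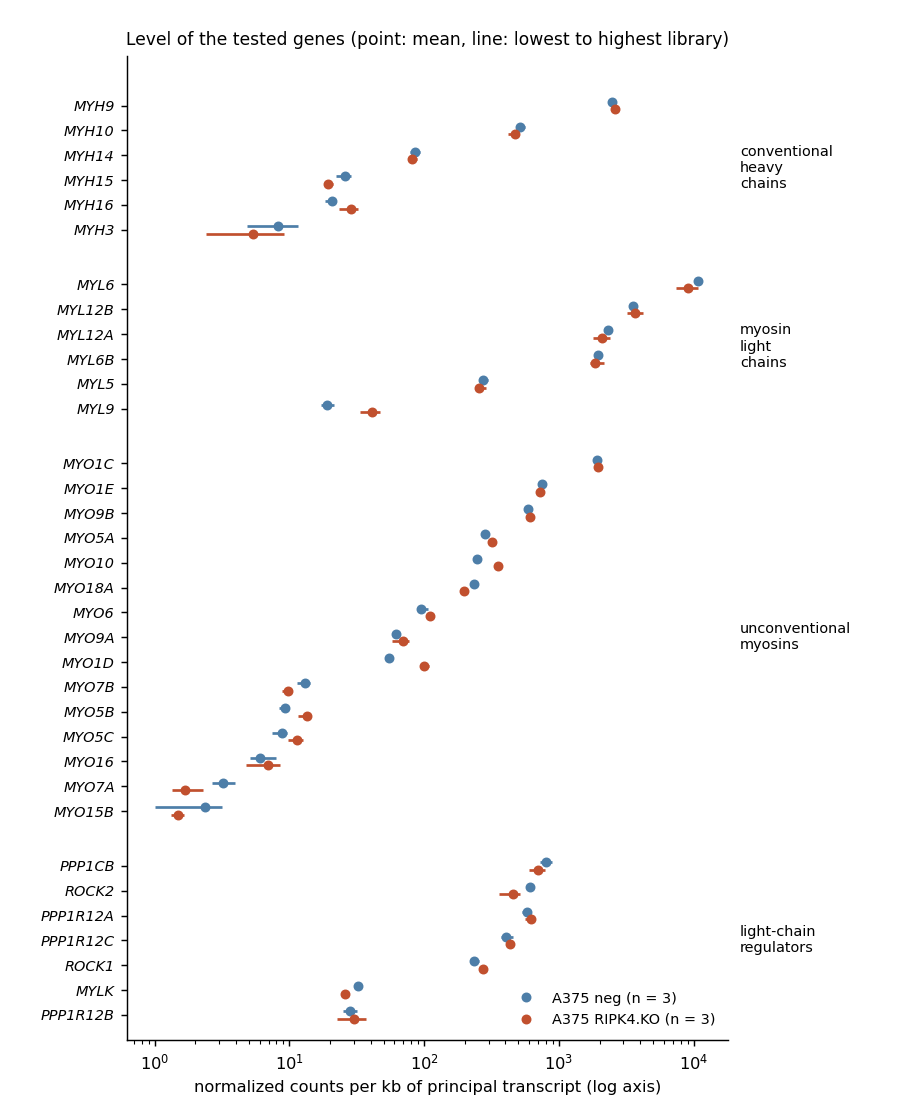
Level of 34 of the 35 tested genes in normalized counts per kb of principal transcript (log axis), grouped by class; points are the means of 3 libraries and lines run from the lowest to the highest library. MYL6, MYL12B and MYH9 have the highest levels of the tested genes, and MYL9 is the lowest of the 6 light chains in both groups.

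Of the light chains, MYL9 was the scarcest of the 6 that were tested and the one that rose. MYL6, the essential light chain of non-muscle myosin II, was the most abundant at 10815 ± 384 normalized counts per kb in A375 neg. It was followed by the regulatory chains MYL12B (3540 ± 157) and MYL12A (2320 ± 89.5) and the essential chain MYL6B (1950 ± 127). MYL5 and MYL9 stood at 275 ± 20.9 and 19.1 ± 2.07 normalized counts per kb. The A375 neg libraries of neighbours in this order did not overlap, and MYL9 remained the lowest in A375 RIPK4.KO at 41.1 ± 7.05.

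MYL9 (chr20:36541519-36551447) encodes the regulatory light chain of smooth muscle and non-muscle cells. Its normalized counts were 60.0, 53.4 and 48.3 in the controls and 94.0, 133 and 122 in the knockout. Every knockout library lay above every control, although in bulk RNA a rise in each cell and more cells with the transcript cannot be told apart. The log2 fold change was 1.11 ± 0.21 (SE), with a 95% interval of 0.63 to 1.58. It passed in every alternative fit, with adjusted p-values of 0.00582 to 0.0312 when libraries were left out in turn and of 0.0109 without replicate 2.

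Against this, the more abundant regulatory chains did not pass the test. MYL12A (chr18:3247482-3256237) had 2861, 2958 and 2738 normalized counts in the controls and 2199, 2935 and 2523 in the knockout, with a log2 fold change of -0.16 ± 0.10 and an adjusted p of 0.317. Replicate 2 overlapped the controls while the other 2 knockout libraries lay below them. Without it the log2 fold change was -0.27 with an adjusted p of 0.0182. MYL12B (chr18:3262133-3278461) had 4332, 4275 and 4640 normalized counts in the controls and 3957, 5267 and 4549 in the knockout. The groups overlapped, and its log2 fold change of 0.06 ± 0.10 (adjusted p = 0.748) turned to -0.05 without replicate 2.

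MYL9 was a small part of the regulatory light chain pool. It took 0.366%, 0.324% and 0.288% of the pool per kb in the controls and 0.668%, 0.706% and 0.752% in the knockout. The means were 0.326 ± 0.039 and 0.709 ± 0.042 (SD, n = 3) without overlap, and the exact permutation test gave its smallest possible p, 0.1. Replicate 2 did not stand apart in this share. The sum of the 3 regulatory chains was 5875 ± 74.9 normalized counts per kb in the controls and 5794 ± 832 in the knockout (exact permutation test, p = 0.7). The level of the share depends on the length used: the knockout mean was 0.972% with the union of exons as length and 1.6% without division by length, against 0.442% and 0.737% in the controls. By library, the summed pool was 5817, 5849 and 5960 normalized counts per kb in the controls and 4991, 6652 and 5738 in the knockout. Replicate 2 lay above all controls and the other 2 knockout libraries below them. With this spread, the test cannot decide whether the pool as a whole differed.

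**Figure D3:**
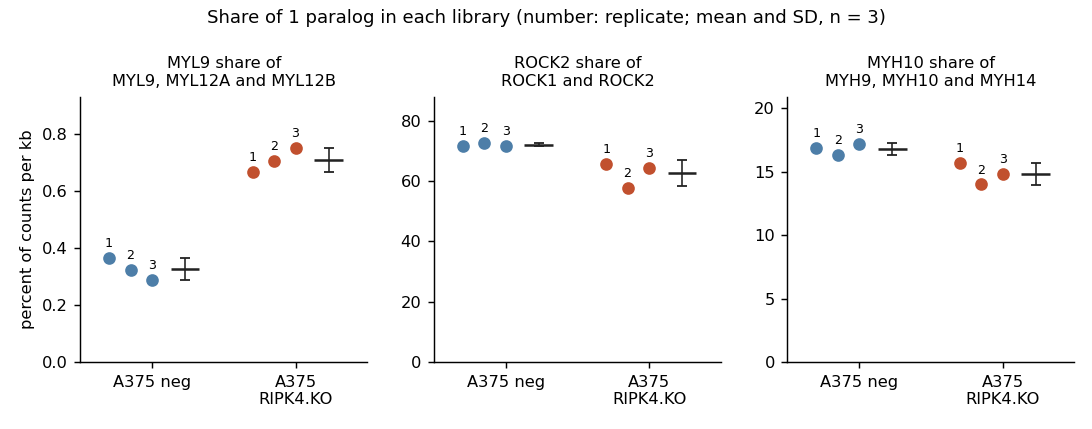
Share of MYL9, ROCK2 and MYH10 in the normalized counts per kb of their own paralog group, in percent (vertical axes from 0), with 1 numbered point for each library and the mean ± SD (n = 3) beside them. MYL9 goes from 0.326% to 0.709%, ROCK2 from 72% to 62.5% and MYH10 from 16.8% to 14.8%, each without overlap of the libraries.

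The essential light chain MYL6 (chr12:56158359-56161579) had 9465, 10131 and 9637 normalized counts in the controls and 6638, 9634 and 8221 in the knockout. Replicate 2 lay within the control range and the other 2 knockout libraries below it. The log2 fold change was -0.26 ± 0.12 with an adjusted p of 0.183, -0.39 with an adjusted p of 0.00723 without replicate 2, and -0.28 with an adjusted p of 0.0303 after removal of the length trend. MYL6B (chr12:56152587-56157982), the neighbouring gene, had 2720, 2390 and 2541 normalized counts against 2214, 2813 and 2206, with a log2 fold change of -0.08 ± 0.10 and an adjusted p of 0.642. Replicate 2 lay above all controls and the other 2 knockout libraries below them, and without replicate 2 its log2 fold change was -0.20 with an adjusted p of 0.0446. Essential light chains summed to 12769 ± 266 normalized counts per kb in the controls and to 10909 ± 1890 in the knockout (exact permutation test, p = 0.3, adjusted p = 0.7). The knockout sums were 9064, 12848 and 10815, so that replicate 2 lay in the control range (12589 to 13075) and the other 2 below it. MYL5 had 169 to 196 normalized counts against 159 to 190, with an adjusted p of 0.671. The cardiac chains MYL2 and MYL4 had totals of 4 and 14 counts and were not tested.

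Among the unconventional myosins, 2 rose and 1 fell, against a background of 8.4% and 8.24% of all genes tested. MYO10, MYO1D and MYO18A belong to separate classes. MYO1C and MYO1E, class I motors like MYO1D, had log2 fold changes of 0.04 and -0.04 with adjusted p-values of 0.704 and 0.737.

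MYO10 (chr5:16661907-16936288) encodes the motor that moves to the tips of filopodia and binds integrins and phosphoinositides. It had 2011, 1911 and 2021 normalized counts in the controls and 2748, 2787 and 2906 in the knockout. The gap between the groups was wider than the range of either. The log2 fold change was 0.51 ± 0.06, or 1.42-fold, with an adjusted p of 0.000397. With its small spread it had the smallest adjusted p of the 35 genes, and it rose in every alternative fit, the largest log2 fold change being 0.56 after removal of the length trend (0.48 to 0.53 when libraries were left out in turn).

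MYO1D (chr17:32492522-32877124) encodes a short-tailed, membrane-binding class I motor. It had 282, 316 and 318.5 normalized counts in the controls and 514, 607.5 and 525 in the knockout. All knockout libraries lay above all controls, and the log2 fold change was 0.84 ± 0.10, or 1.80-fold, with an adjusted p of 0.000618. The estimate was 0.77 without replicate 2, the highest of the 6 libraries. On the scale of normalized counts per kb, MYO1D reached 98.7 ± 9.19 in A375 RIPK4.KO from 54.9 ± 3.67, and remained below MYO1C and MYO1E, which stood at 1910 and 741 in A375 neg.

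MYO18A (chr17:29071122-29180398) encodes a myosin with little motor activity that links the Golgi to actin and can join non-muscle myosin II filaments. Its normalized counts were 2196, 2481 and 2347 in the controls and 2081, 1899 and 1886 in the knockout, and the groups did not overlap. It fell by 0.26 ± 0.07 on the log2 scale, with an adjusted p of 0.0345. The call was lost when control replicate 2 or 3 or knockout replicate 3 was left out, with adjusted p-values up to 0.148, and after removal of the length trend, where its adjusted p was 0.095. Of its 150-base windows, 12.7% were shared with the overlapping gene TIAF1, whose row held between 0 and 9 counts in each library.

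**Figure D4:**
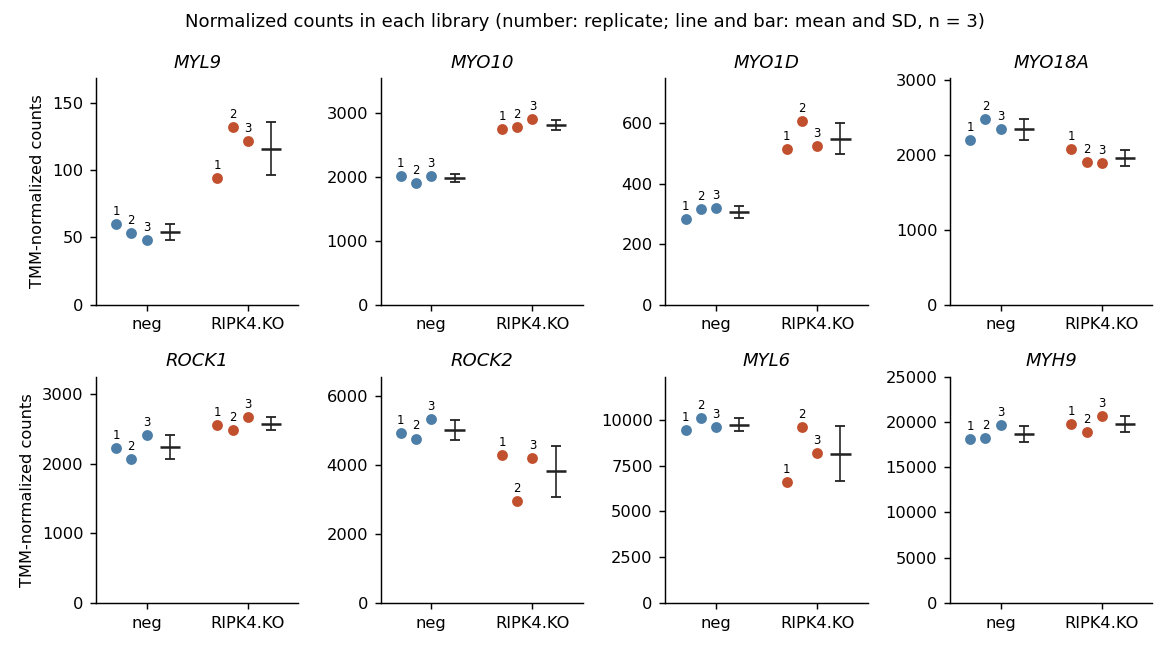
TMM-normalized counts of 8 genes in each library (vertical axes from 0), with 1 numbered point for each replicate and the mean ± SD (n = 3) beside them. MYL9, MYO10 and MYO1D are higher and MYO18A lower in all 3 knockout libraries, ROCK1 and ROCK2 lie on opposite sides of their controls, and replicate 2 of A375 RIPK4.KO is the lowest library of ROCK2 and lies within the control range of MYL6.

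The motors of melanosome transport did not pass the test. MYO5A (chr15:52307283-52529050), which holds melanosomes at the actin-rich periphery, had 3367, 3304 and 3636 normalized counts in the controls and 3779, 3703 and 4131 in the knockout. The groups did not overlap, but the difference was small, with a log2 fold change of 0.17 ± 0.07 and an adjusted p of 0.124. Without replicate 2 it was 0.21 with an adjusted p of 0.036, and 0.24 with an adjusted p of 0.0283 after removal of the length trend. Its scarcer paralogs had the same sign: MYO5B, a motor of recycling endosomes, had 79.6 to 93.0 normalized counts in the controls and 110 to 136 in the knockout (log2 fold change 0.54, adjusted p = 0.0703), and MYO5C had 52.1 to 67.3 against 67.9 to 88.5 (0.35, adjusted p = 0.307). All 3 class V motors lay higher without overlap, as did 18.7% of all genes tested, and none was called. Of the windows of MYO5B, 4.33% were shared with AC090227.1. MYO7A, a motor of melanosomes and sensory hair cells, had 19.3 to 29 normalized counts in the controls and 9.84 to 16.7 in the knockout, which gave the largest fitted decrease among the 35 genes (log2 fold change -0.94, 95% interval -1.79 to -0.10) with an adjusted p of 0.124.

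A further 6 unconventional myosins did not pass. MYO6, which moves towards the minus end of actin, had 758 to 907 normalized counts in the controls and 881 to 979 in the knockout (log2 fold change 0.22, adjusted p = 0.144, and 0.0472 after removal of the length trend). MYO9A and MYO9B, motors that carry a GTPase-activating domain, had log2 fold changes of 0.15 and 0.04 with adjusted p-values of 0.396 and 0.673. MYO9A passed without replicate 2 (0.27, adjusted p = 0.0259). MYO7B, a motor of the brush border, had 75.8 to 95 normalized counts against 59.5 to 70.0 without overlap (log2 fold change -0.42, adjusted p = 0.184). MYO16 and MYO15B had at most 58.8 and 29 normalized counts in a library, overlapped, and had adjusted p-values of 0.702 and 0.379. MYO1F and MYO1G, class I motors of blood cells, had totals of 36 and 15 counts with no more than 4 in a knockout library, and MYO15A had a total of 12. These 3 were not tested.

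Of the light-chain regulators, the ROCK paralogs moved in opposite directions without overlap, and neither was called in the main comparison. ROCK2 (chr2:11179759-11345437) had 4934, 4763 and 5340 normalized counts in the controls and 4283, 2950 and 4192 in the knockout. Replicate 2 was far below the other 2 knockout libraries, and these in turn lay below all controls. The log2 fold change was -0.40 ± 0.13 with a 95% interval of -0.69 to -0.10 and an adjusted p of 0.0683 in edgeR's quasi-likelihood test. Leaving out replicate 2 made the difference smaller and its spread narrower, at -0.24 ± 0.06 with an adjusted p of 0.015. ROCK2 also passed in DESeq2 (-0.39, adjusted p = 0.0115), after removal of the length trend (-0.36, adjusted p = 0.0177) and without replicate 1 of A375 RIPK4.KO, and its adjusted p reached 0.203 in the fits that left out other libraries.

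ROCK1 (chr18:20946906-21111813) had 2229, 2062 and 2409 normalized counts in the controls and 2557, 2486 and 2675 in the knockout. Every knockout library lay above every control, by a small margin. The log2 fold change was 0.20 ± 0.07 with an adjusted p of 0.0872, 0.23 with an adjusted p of 0.0344 without replicate 2, and 0.26 with an adjusted p of 0.0169 after removal of the length trend. Of its windows, 3.33% were shared with the pseudogene ROCK1P1, whose row held between 3 and 13 counts in each library. ROCK2 made up 71.7%, 72.5% and 71.7% of the counts per kb of both kinases in the controls and 65.7%, 57.6% and 64.2% in the knockout. The controls lay within a percentage point of each other, and the knockout mean differed from theirs by -9.49 points (72 ± 0.489 and 62.5 ± 4.33, exact permutation test, p = 0.1, the smallest possible). The difference was -7.03 points without replicate 2. ROCK2 nevertheless remained the more abundant paralog per kb in all 6 libraries.

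MYLK (chr3:123610049-123884332), the calmodulin-dependent myosin light-chain kinase, had 337, 316 and 313 normalized counts in the controls and 276.5, 259 and 242 in the knockout. All knockout libraries were below all controls, but the log2 fold change of -0.31 ± 0.11 did not pass (adjusted p = 0.0925), nor did it without replicate 2 (-0.31, adjusted p = 0.126). Per kb, MYLK (32.1 ± 1.31 in A375 neg) was the scarcer kinase beside ROCK2 (605 ± 35.7) and ROCK1 (235 ± 18.3). The muscle kinases MYLK2, MYLK3 and MYLK4 had totals of 46, 9 and 35 counts and were not tested.

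No myosin phosphatase subunit passed. PPP1R12A (chr12:79773563-79935460), the targeting subunit that ROCK phosphorylates and inhibits, had 3339, 3048 and 3515 normalized counts in the controls and 3652, 3208 and 3801 in the knockout. The groups overlapped, with a log2 fold change of 0.11 ± 0.08 and an adjusted p of 0.431. PPP1CB (chr2:28751604-28802940), the catalytic subunit, had 3821, 3513 and 4354 normalized counts against 3480, 2943 and 3838 and also overlapped, with a log2 fold change of -0.19 ± 0.11 and an adjusted p of 0.289. PPP1R12B and PPP1R12C had log2 fold changes of 0.12 and 0.10 with adjusted p-values of 0.686 and 0.456. Of the windows of PPP1CB, 6.62% were shared with SPDYA.

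Promoters are shown for MYO10 and MYO1D, as the myosins that rose with the smallest adjusted p-values, and for ROCK2, which has a CArG box, the element bound by serum response factor (SRF). Each line is the 250 bases before a RefSeq start of the gene on GRCh38, on the - strand and written 5′ to 3′. Capitals mark GC boxes (GGGCGG on either strand, the element bound by SP factors) in the promoters of MYO10 and MYO1D, and the CArG box in that of ROCK2.

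MYO10 (chr5:16936289-16936538): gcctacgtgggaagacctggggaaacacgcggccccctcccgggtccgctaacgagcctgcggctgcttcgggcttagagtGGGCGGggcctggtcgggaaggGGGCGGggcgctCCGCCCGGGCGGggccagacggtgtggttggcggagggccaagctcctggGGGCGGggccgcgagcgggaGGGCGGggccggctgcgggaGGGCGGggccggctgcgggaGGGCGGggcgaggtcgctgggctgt
MYO1D (chr17:32877125-32877374): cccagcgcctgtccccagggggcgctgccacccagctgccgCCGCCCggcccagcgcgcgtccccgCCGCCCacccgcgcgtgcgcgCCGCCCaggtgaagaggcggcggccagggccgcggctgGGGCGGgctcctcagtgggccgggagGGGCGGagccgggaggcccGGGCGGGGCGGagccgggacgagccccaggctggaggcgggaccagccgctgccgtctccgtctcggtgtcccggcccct
ROCK2 (chr2:11345438-11345687): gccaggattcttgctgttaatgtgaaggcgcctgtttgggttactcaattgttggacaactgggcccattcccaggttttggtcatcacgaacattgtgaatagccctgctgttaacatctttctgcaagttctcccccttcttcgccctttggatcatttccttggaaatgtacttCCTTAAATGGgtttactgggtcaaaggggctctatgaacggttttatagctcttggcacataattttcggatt

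The promoter shown for MYO10 held 8 GC boxes and that for MYO1D 7, of which neighbouring ones can overlap by a base. That shown for ROCK2 held 1 CArG box starting 73 bases before the start and no GC box. A GC box was found for ROCK2 in another of its promoters, which is not shown. Of the tested genes described here, 30 had at least 1 promoter in the RefSeq table, with 47 promoters in all. GC boxes were in 29 of these 47 promoters (61.7%), compared with 61.7% of the 15816 promoters of all genes tested. The TEAD site GGAATG, on either strand, was in 7 of the 47 (14.9%) against 9.92%, and the CArG box in 3 (6.38%, of MYLK, MYO1E and ROCK2) against 1.08%. None of these 3 genes was called. MYL9 is not in the promoter table, so its promoter was not searched. Such matches describe letters and not bound sites.

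Genes that act with the myosins were compared in 3 further lists, each in the same fit. Of 43 tested genes of the RhoA GTPase, its regulators and related kinases, 4 rose and 4 fell (18.6%, against 16.6% of all genes tested), with a median log2 fold change of -0.01. RHOA itself had 12735 to 14021 normalized counts across the libraries and did not pass (log2 fold change -0.03, adjusted p = 0.808). ARHGDIB, a dissociation inhibitor of small GTPases, fell from 661 ± 12.3 to 216 ± 18.3 normalized counts (log2 fold change -1.61). ARHGEF28, an exchange factor for RhoA, rose from 1317 ± 63.8 to 2475 ± 168 (0.91). SSH3, a cofilin phosphatase, fell from 242.5 ± 18.0 to 172 ± 21.5 (-0.50, adjusted p = 0.049), and CALM2, which encodes calmodulin, rose from 26654 ± 225 to 32435 ± 3540 (0.28, adjusted p = 0.0444). SSH3 and CALM2 were near the threshold, and were called in 1 and 2 of the 6 fits that each left out a library. The count for the list was 3 without any 1 of the control libraries or without knockout replicate 3. The share of all genes called in those fits was not taken. Without knockout replicate 2 the count was 15. In that last fit 19.8% of all genes tested were called.

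Targets and partners of MRTF and SRF, the transcription factors that respond to actin assembly and of which MYL9 is a known target, formed the second list. Of 27 tested, 7 rose and 5 fell, a larger share (44.4%) than that of all genes tested (16.6%). The list was chosen with earlier results of these data known, and this difference in shares was not tested. The median log2 fold change was -0.00, so that no common direction was seen. CCN2, a secreted matricellular protein, rose from 2516 ± 190 to 8648 ± 491 normalized counts (log2 fold change 1.78). TPM1, which encodes tropomyosin, rose from 9888 ± 473.5 to 21212 ± 992 (1.10). EGR1, an immediate early gene, fell from 327 ± 21.4 to 113 ± 24.5 (-1.54), and ACTA2, smooth muscle actin, fell from 170 ± 10.1 to 76.5 ± 13.4 (-1.15). None of the libraries of the groups overlapped for these 4 genes. SRF itself rose (0.27, adjusted p = 0.032) but was called in 2 of the 6 fits that each left out a library, while MRTFA (0.27, adjusted p = 0.0875) and MRTFB (-0.04, adjusted p = 0.795) did not pass.

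Among 31 tested adaptors, Rab GTPases and nucleators that couple unconventional myosins to cargo or actin, 2 rose and 3 fell. This share (16.1%) was close to that of all genes tested (16.6%). SPIRE1 and SPIRE2, actin nucleators that work with class V myosins, both rose: SPIRE1 from 525 ± 6.89 to 862 ± 25.1 normalized counts (log2 fold change 0.72, adjusted p = 0.000154) and SPIRE2 from 252 ± 17.6 to 347 ± 8.42 (0.46, adjusted p = 0.0189). RAB27B and SYTL4, a Rab of secretory vesicles and its effector, fell by 0.57 and 1.09 on the log2 scale (adjusted p = 0.02 and 0.024). RAB27B, SYTL4 and SPIRE2 were each called in 3 of the 6 fits that left out a library, and SPIRE1 in all 6. The count for this list was 2 without any 1 of the control libraries or without knockout replicate 3. The share of all genes called in those fits was not taken. Without knockout replicate 2 the count was 8. In that last fit 19.8% of all genes tested were called. RAB27A and MLPH, which tie MYO5A to melanosomes, did not pass (log2 fold changes 0.18 and -0.15, adjusted p = 0.46 and 0.648).

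Few markers of other cell types had enough counts to be tested, and of those tested none was called higher. Of 14 striated muscle markers 6 were listed, 2 tested and 1 called lower, with summed levels of 32.2 to 36 CPM in the controls and 23.8 to 27.9 in the knockout. Fibroblast markers summed to 7.53 to 9.25 CPM against 6.19 to 6.49, endothelial markers to 1.31 to 1.47 against 0.25 to 0.503, epithelial markers to 19.2 to 23.2 against 5.9 to 6.68, and leukocyte markers to 1.57 to 2.01 against 0 to 0.731, with PTPRC at or under 3 counts in all libraries. Of 8 melanocytic markers 5 were listed, all 5 were tested and 3 fell, and MLANA, TYR and DCT are not listed. Their summed level was 388 to 419 CPM against 319 to 359. Of 4 fibroblast markers 3 were tested and 0 called, and of the endothelial, epithelial and leukocyte markers 1 each was tested and called lower. The part of these differences in the values of the myosin genes was not tested.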

How the data were processed

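RNA-seq of 6 A375 libraries was analysed. The authors deposited raw counts per gene, whole numbers without normalization, in 1 table with their normalized counts and their own fold changes and p-values, which were not used. The submitters' processing notes name cutadapt, FastQC, HISAT2, HTSeq, DESeq2 and GRCh38.p13, and the strand setting of the counting is not given in the sources used here. The test was edgeR's quasi-likelihood test (edgeR 4.0.16 in R 4.3.3) after TMM scaling and filterByExpr, with Benjamini-Hochberg adjusted p-values over 14443 genes. Normalized counts are counts divided by the TMM-scaled library size relative to the mean. Lengths are those of the GENCODE 29 principal transcript, and gene positions are from RefSeq GRCh38.p14. Exon lengths were found for 86.82% of genes. A count of 0 allows up to 3 counts, 0.112 to 0.137 CPM, for counting error only. Shares were compared with a two-sided exact permutation test. In simulated counts of 14505 genes, edgeR recovered 86% of 1.5-fold and 100% of 3-fold changes, with 5 false calls. The changed genes had means above 5 CPM, all genes had the same fixed dispersion, and no library deviated or had a length trend. MYL9 had 1.97 to 5.17 CPM, so these rates do not carry over to it, nor to data with a library like knockout replicate 2. Alternatives were DESeq2 1.42.0, its size factors in edgeR, no filter, a replicate block, each library left out, a 1.5-fold limit, lengths not used and the length trend removed. For that trend, the log2 CPM of each library was taken relative to the gene's mean over all 6 libraries. A smoothed curve (lowess) of this value on log2 transcript length was taken out of each library. A difference between the groups that goes with length is taken out with it. The union of exons as length was added after the data had been seen. The genes, lists and rules were chosen with earlier results of these data known. Every gene described here could be named, with full statistics for called genes and 14 core genes, and from each list the 4 called genes with the largest change were named besides MRTFA, MRTFB, SRF, RHOA, RAB27A and MLPH. Reads and proteins were not analysed here. Values of 1 tested gene are not reported here.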

Additional observations from a re-analysis of the deposited data

How the results depend on the processing

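Of 321 values recomputed under alternatives, 271 were unchanged, meaning the same direction and call for a test, within 1.5 times for a count and within 1 SD for a share, and MYL9, MYO10 and MYO1D were called in every fit. The count of called genes among the 35 (4) was 8 after removal of the length trend and 2 at a 1.5-fold limit, and 3 to 12 when libraries were left out. Light chains called (1) were 2 after removal of the length trend and 1 to 4 with libraries left out, unconventional myosins (3) were 1 at 1.5-fold and 2 to 5, conventional heavy chains (0) were 0 to 1, and regulators (0) were 1 in DESeq2, 2 after removal of the length trend and 0 to 2. The RhoA list (8) gave 14 after removal of the length trend, 2 at 1.5-fold and 3 to 15, the MRTF and SRF list (12) gave 7 at 1.5-fold and 10 to 14, and the adaptor list (5) gave 8, 2 and 2 to 8. The highest count of each range came without A375 RIPK4.KO replicate 2. Of all genes tested, 19.8% were called in that fit and 16.6% in the main fit. The share was 20.4% after removal of the length trend and 9.04% at 1.5-fold. It was not taken in DESeq2 or in the other fits that left out a library. The MYL9 share differed by 0.383 points per kb of principal transcript, 0.529 with the union of exons and 0.858 without length. With libraries left out, the log2 fold change of MYH14 ran from -0.11 to 0.01 (without A375 neg replicate 3) and that of MYL12B from -0.05 (without A375 RIPK4.KO replicate 2) to 0.15. The causes were not tested.

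Replicate numbers were not used as pairs in the main fit. Deviations of same-numbered libraries correlated at 0.082, 0.036 and -0.012, and 3 of 6 libraries correlated best with their own number. So few libraries cannot decide whether they were paired. A replicate block took the SE of ROCK2 from 0.13 to 0.09 and that of MYL9 from 0.21 to 0.23. With the replicate block, 6 of the 35 genes were called, with ROCK1 (adjusted p = 0.0438) and ROCK2 (adjusted p = 0.0194) added. Thus 2 regulators were called, and the share of all genes called in that fit was not taken. Shares of 3 libraries against 3 cannot reach p under 0.1, and the 10 untested genes are limited by depth.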

Other observations

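Rows beside the chosen genes, picked after their values were seen, gave these raw counts. MYO19_1, a copy of MYO19 named with a suffix, had 43, 34 and 44 counts in the controls (A375 neg). Its counts were 39, 188 and 354 in the knockout, so that 2 of 3 knockout libraries were high and 1 was within the control range. MYO19 without the suffix was not among the genes that the rule found. MYL12-AS1, antisense to the MYL12 genes, had 8, 3 and 2 counts against 17, 14 and 9. MYLK-AS1 had 15, 16 and 18 counts against 9, 9 and 7, the same order of groups as MYLK, and reads of a gene and its antisense partner cannot be told apart unless the counting used strand. MYLPF, the fast skeletal regulatory light chain, had at most 5 counts in any library.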
